A study of Rattus norvegicus with 6 samples.

Results

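Axon guidance genes of the ephrin, Slit, netrin and repulsive guidance molecule (RGM) systems were measured in dorsal root ganglion (DRG) neurons of spontaneously hypertensive rats (SHRs). The members were the protein-coding rows of the count table whose names belong to the Eph receptor, ephrin, Slit, Robo, netrin, netrin-G, Unc5, Dcc, neogenin and RGM families, and 42 of 25689 genes matched, 19 ligands and 23 receptors. All animals were wild type SHRs, an inbred strain that develops high blood pressure, and the labels give an age of 6 to 8 weeks, whereas the methods of the study give 12 weeks at purchase. In 3 samples the perirenal adipose tissue had been removed surgically on both sides (PRATA), and 3 samples came from sham-operated SHRs. Neurons of the L1-L2 DRGs were taken 4 weeks after the operation, separated from glial cells by a difference in adhesion speed in a short culture, and their total RNA was sequenced after removal of ribosomal fragments. The labels do not say whether a sample is 1 animal or a pool, so the p-values measure the spread between these samples.

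Guidance systems tell growing axons where to go, and in the adult several of them remain active in sensory ganglia and nerves. Ephrins are ligands held in the membrane, by a lipid anchor in the A class and by a transmembrane stretch in the B class, and they bind Eph receptor tyrosine kinases on contacting cells. Slits are secreted ligands of Robo receptors that repel axons and drive branching of sensory axons, netrins attract through Dcc or repel through Unc5 receptors, and RGM proteins bind neogenin.

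The libraries held 5892967 counts (sham replicate 2) to 15226952 counts (sham replicate 1). Levels are given as CPM, the count scaled to a common library size, and 3 counts came to 0.207 to 0.468 CPM, a floor for counting error only. All 27 sensory neuron markers of a list were detected in every library, and so were all 12 satellite glia markers and 15 of 15 matched fibroblast markers. Sham replicate 2 stood apart among weakly expressed genes, since it held the highest CPM for 57.3% of the 10770 genes under the filter on low counts. Rn7sl1, a copy of the 7SL RNA gene, took 5.4% of the counts of PRATA replicate 3 and 5.63% of those of sham replicate 1, but 1.25% to 1.52% in the other 4 libraries.

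Of the 42 members, 34 had counts high enough for a test, and the operations were compared by edgeR's quasi-likelihood test on TMM-normalized counts. No member had an adjusted p under 0.05 in this edgeR test, and neither did any of the 14919 genes tested (0%). DESeq2, run without this filter on low counts, placed 2 of 42 members (Epha5 and Ephb6) under this threshold, beside 662 of 25624 genes. Limma voom with sample quality weights placed 4 of 34 members (Epha5, Ephb6, Rgmb and Ntn4) under it, beside 1173 of 14919 genes. At an unadjusted p under 0.05, 6 members were higher after PRATA, where 8.19% of all genes were, and 1 was lower, where 10.1% of all genes were. In either direction these were 7 of 34 members (20.6%), against 18.3% of all genes, a share near the background.
Among the ligands, 3 of 14 were higher (Slit1, Ntn3 and Rgmb) and 1 was lower (Ntn4). Of 18 alternatives, Slit1 had an unadjusted p under 0.05 in 7, Ntn3 in 8, Rgmb in 17 and Ntn4 in 18. Among the receptors, 3 of 20 were higher (Epha5, Epha10 and Ephb6) and 0 were lower, and these passed in 17, 14 and 17 of the alternatives. Rgmb, Epha5 and Ephb6 missed it only when libraries were scaled to sensory neuron markers. Ntn4 passed there too, in a fit where 29.1% of all genes were lower. These members were picked by the same rule in the same data, and the share of all genes passing as often was not computed. The median log2 fold change was 0.25 for the ligands and 0.18 for the receptors, against 0.02 for all genes. The groups did not overlap for 6 of the 34 members (17.6%), against 22.8% of all genes.
Leaving out sham replicate 2 gave 5 receptors higher and 1 lower, 3 ligands higher and 2 lower, and an edgeR adjusted p under 0.05 for Epha5 (0.0470). In that fit 13.4% of all genes were higher and 14.1% lower, and 721 genes had an adjusted p under 0.05, so that calls rose over the whole table. Without PRATA replicate 3, or without sham replicate 1, 1 ligand was higher, where 5.55% and 6.48% of all genes were. Without sham replicate 3, 1 receptor and 2 ligands were lower, and the medians were 0.01 for the receptors and 0.08 for the ligands, where 3.76% of all genes were higher and 5.57% lower.

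**Figure D1:**
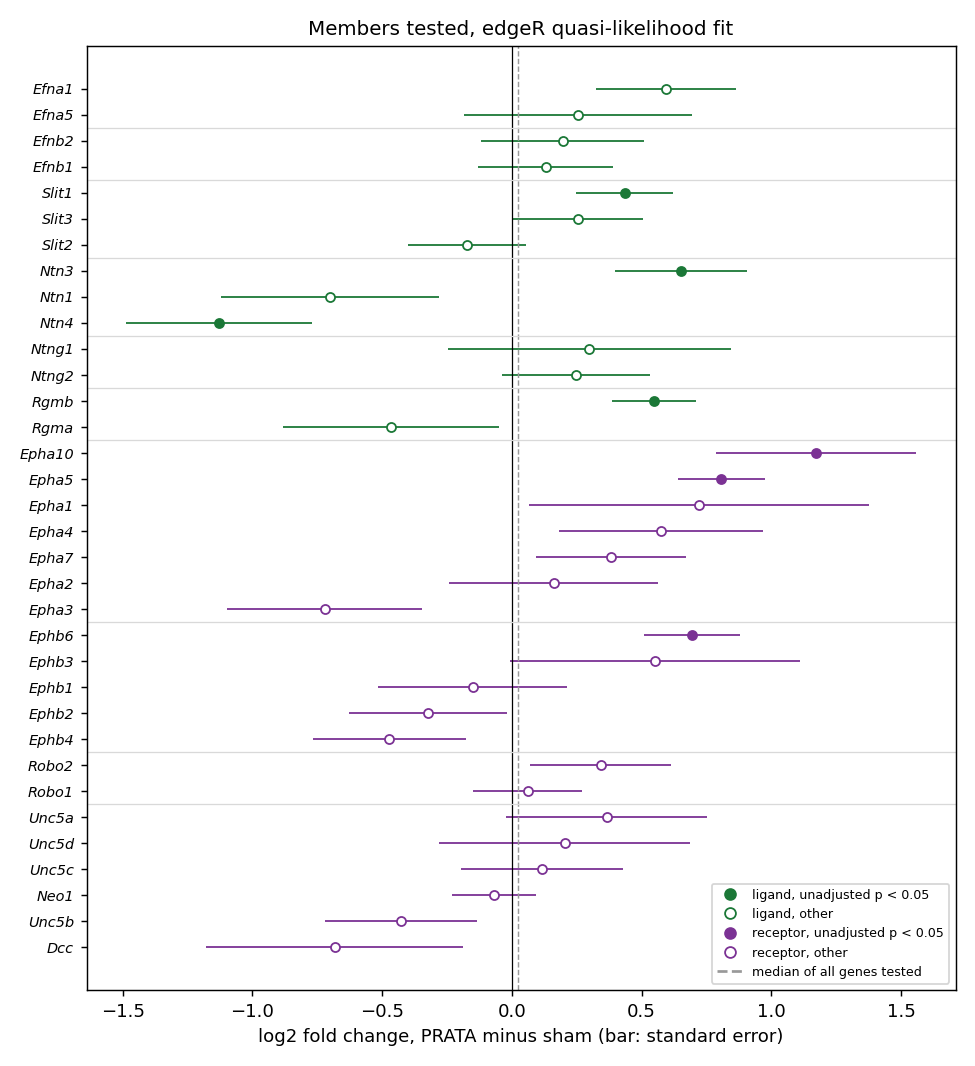
Log2 fold change of the 34 members tested (PRATA minus sham, horizontal axis), with the standard error as a bar, ligands in green and receptors in purple, grouped by family. Filled points mark the 7 members with an unadjusted p under 0.05, from Ntn4 at -1.13 to Epha10 at 1.17.

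Sensory neuron markers, which are no members, had mostly positive differences. A log2 fold change above 0 was found for 26 of the 27 markers (96.3%), for 23 of the 34 members (67.6%) and for 52.0% of all genes. The markers had a median of 0.47, and 8 were higher and 1 lower at an unadjusted p under 0.05. These were 29.6% and 3.7% of the markers, against 8.19% and 10.1% of all genes. Their summed level was 17690 to 25703 CPM after PRATA and 12485 to 18714 CPM with sham surgery, so that the groups overlapped. All 12 satellite glia markers had a log2 fold change below 0, with a median of -0.53 and summed levels of 3771 to 6966 CPM after PRATA and 4863 to 9309 CPM with sham surgery. Most of these sums was Apoe, at 2779 to 5229 CPM after PRATA and 3707 to 7473 CPM with sham surgery. The median was 0.69 for 15 Schwann cell markers (2157 to 3023 CPM summed after PRATA, 1931 to 2377 in the sham samples) and -0.27 for 14 tested fibroblast markers (1230 to 3627 CPM summed after PRATA, 2134 to 3236 in the sham samples).
Endothelial, macrophage and T cell markers were low in all libraries, with summed levels of at most 199, 233 and 8.76 CPM. Mural cell markers summed to at most 1048 CPM (sham replicate 1), of which Mcam alone gave 717 CPM. In such bulk samples, fewer cells of a type and less RNA per cell cannot be told apart. When libraries were scaled to the sensory neuron markers in place of TMM, the median of all genes was -0.48, and the medians became -0.28 for the receptors and -0.26 for the ligands. On that scale 0 members were higher at an unadjusted p under 0.05, and 3 receptors and 3 ligands were lower, while 0.275% of all genes were higher and 29.1% were lower. Values on that scale are to be read against this shifted median, and the part of the cell type markers in the members' differences was not tested.

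**Figure D2:**
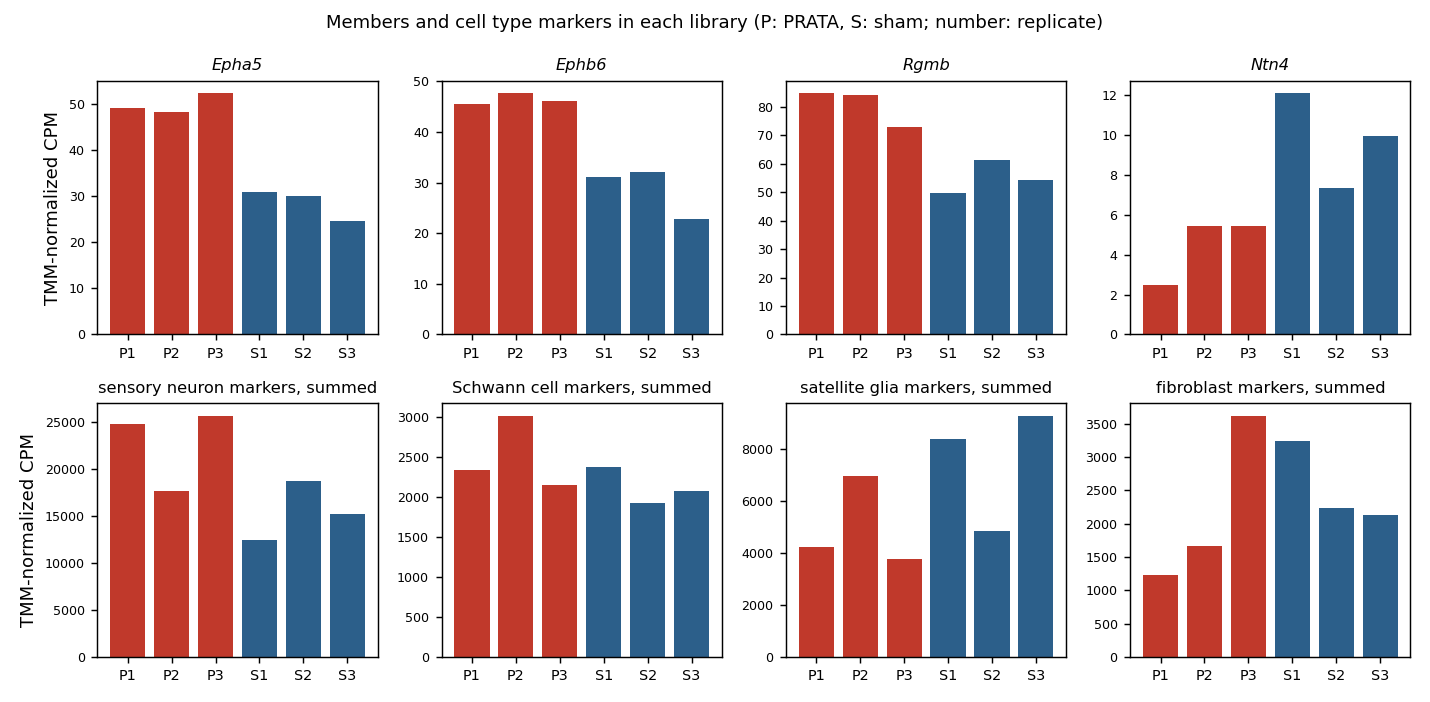
TMM-normalized CPM (vertical axes) of 4 members (upper row) and summed CPM of 4 cell type marker lists (lower row), with a bar for each library, PRATA in red and sham in blue. Epha5, Ephb6 and Rgmb were higher in every PRATA library than in every sham library and Ntn4 was lower, whereas the summed levels of all 4 marker lists overlap between the groups.

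Epha5 and Ephb6 were the receptors that separated the groups with the smallest p, and Rgmb and Ntn4 were the ligands. The 250 bases before the RefSeq start of each of these genes (build GRCr8) are shown because these are the members that any of the tests placed under an adjusted p of 0.05. They lie on the plus strand at chr14:24007872-24008121 for Epha5, at chr4:71458382-71458631 for Ephb6 and at chr7:30073387-30073636 for Ntn4, and on the minus strand at chr1:65465150-65465399 for Rgmb. Each is written 5′ to 3′ on the strand of its gene, and capitals mark a match to any of the 5 motifs searched on both strands.
Epha5: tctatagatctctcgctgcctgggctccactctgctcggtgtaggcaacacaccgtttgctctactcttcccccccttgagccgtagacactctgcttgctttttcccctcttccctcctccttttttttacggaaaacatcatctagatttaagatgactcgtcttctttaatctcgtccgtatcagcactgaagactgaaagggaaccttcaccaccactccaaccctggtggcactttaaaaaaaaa
Ephb6: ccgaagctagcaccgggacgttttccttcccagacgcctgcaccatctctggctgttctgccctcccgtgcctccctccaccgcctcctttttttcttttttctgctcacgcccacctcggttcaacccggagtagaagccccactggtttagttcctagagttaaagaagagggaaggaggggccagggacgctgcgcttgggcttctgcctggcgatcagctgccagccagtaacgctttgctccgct
Rgmb: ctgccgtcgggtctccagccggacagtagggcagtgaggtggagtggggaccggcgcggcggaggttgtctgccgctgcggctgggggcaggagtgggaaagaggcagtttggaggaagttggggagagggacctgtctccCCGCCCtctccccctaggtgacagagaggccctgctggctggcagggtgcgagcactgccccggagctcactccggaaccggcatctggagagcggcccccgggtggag
Ntn4: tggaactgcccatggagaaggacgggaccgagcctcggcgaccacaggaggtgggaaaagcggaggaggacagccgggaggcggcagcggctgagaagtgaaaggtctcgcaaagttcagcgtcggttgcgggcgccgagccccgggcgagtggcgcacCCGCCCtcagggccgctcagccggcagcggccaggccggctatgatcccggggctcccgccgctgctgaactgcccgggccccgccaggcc
The motifs were the GC box, spelled GGGCGG, and the TATA box, spelled TATAAA. The others were the AP-1 motif, spelled TGANTCA, the CCAAT box and the E-box, spelled CACGTG, and none of the 5 contains another. Rgmb held 1 GC box starting 109 bases before the start and Ntn4 held 1 starting 91 bases before it, while no motif was found in the windows of Epha5 and Ephb6. A GC box occurs in 38.9% of the same windows of 21851 protein-coding promoters. The GC content of the window was 47.6% for Epha5, 59.2% for Ephb6, 70.0% for Rgmb and 72.4% for Ntn4. A match of letters in these windows is a description and not a binding site.

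EphA receptors were led by Epha5 (ENSRNOG00000002024), a receptor of ephrin-A ligands. Its level was 49.1, 48.2 and 52.3 CPM in PRATA replicates 1 to 3, against 30.8, 30.0 and 24.7 CPM in sham replicates 1 to 3. All 3 PRATA values exceeded all 3 sham values, and the PRATA samples lay close together (two-sided p = 0.10 by exact permutation, which is as small as 3 samples against 3 can give). The mean was 49.8 ± 2.15 CPM (SD, n = 3) with PRATA, against 28.5 ± 3.34 CPM (SD, n = 3) with sham surgery, giving a log2 fold change of 0.81 ± 0.17 (standard error, edgeR adjusted p = 0.156). Over 18 alternatives Epha5 had log2 fold changes from 0.30 to 0.88, with adjusted p from 0.00716 (DESeq2) to 0.550. The lowest value belonged to the scaling to sensory neuron markers, on which Epha5 was at 0.30 ± 0.22 (SE, edgeR adjusted p = 0.386).

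Epha10 (ENSRNOG00000037340) encodes an Eph receptor whose kinase domain is inactive. It was read 21, 49 and 38 times in PRATA replicates 1, 2 and 3 and 21, 11 and 12 times in sham replicates 1, 2 and 3, which corresponds to 2.71, 3.90 and 3.01 CPM and to 1.45, 1.72 and 1.13 CPM. The normalized groups did not overlap, although the raw counts were few. The log2 fold change was 1.17 ± 0.39 (SE, edgeR adjusted p = 0.196), the only one of a receptor past both an unadjusted p under 0.05 and a log2 fold change over 1, where 1.17% of all genes lay. Scaled to the sensory neuron markers, it was 0.70 ± 0.40 (SE, edgeR adjusted p = 0.273).
The other EphA receptors tested had overlapping groups. Their log2 fold changes lay above 0 for Epha1, Epha2, Epha4 and Epha7 and below 0 for Epha3, which brought the median of the 7 EphA receptors tested to 0.58. Epha4, which binds ephrins of both classes, was at 6.97, 7.57 and 7.04 CPM with PRATA, against 4.97, 7.34 and 2.36 CPM with sham surgery, where sham replicate 2 lay within the PRATA range. Epha3 was at 3.10, 3.11 and 2.61 CPM with PRATA, against 5.39, 6.40 and 2.83 CPM with sham surgery, so that sham replicate 3 lay among the PRATA samples. Epha7 was at 4.82 to 8.65 CPM after PRATA and 5.15 to 5.29 CPM with sham surgery. Epha2 was at 7.46 to 19.0 CPM over the 6 samples and Epha1 at 0.378 to 3.36 CPM.

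EphB receptors, which bind ephrin-B ligands, had a median log2 fold change of -0.15 over the 5 members tested. Ephb6 (ENSRNOG00000014367), another Eph receptor with an inactive kinase domain, was at 45.4, 47.7 and 46.2 CPM in PRATA replicates 1 to 3, against 31.2, 32.2 and 22.8 CPM in sham replicates 1 to 3. All 3 PRATA values exceeded all 3 sham values, and the PRATA samples differed by less than the sham samples did. The log2 fold change was 0.70 ± 0.19 (SE, edgeR adjusted p = 0.168), with an adjusted p of 0.0420 by DESeq2 and 0.0351 by limma voom with sample quality weights. Scaled to the sensory neuron markers, it was 0.20 ± 0.24 (SE, edgeR adjusted p = 0.593). Ephb6, Epha5 and Epha10 were the receptors higher at an unadjusted p under 0.05.
Ephb1 varied widely in both groups, with 23.4, 31.0 and 12.7 CPM with PRATA, against 33.9, 16.7 and 23.3 CPM with sham surgery. Ephb4, known from the vessel wall, was at 3.36, 4.78 and 4.90 CPM with PRATA, against 6.98, 6.40 and 4.82 CPM with sham surgery, which overlapped. Ephb2 was at 3.36 to 5.82 CPM after PRATA and 5.10 to 6.91 CPM with sham surgery, and Ephb3 at 1.25 to 7.33 CPM over all 6. For none of these 4 genes did the edgeR test give an unadjusted p under 0.05.

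**Figure D3:**
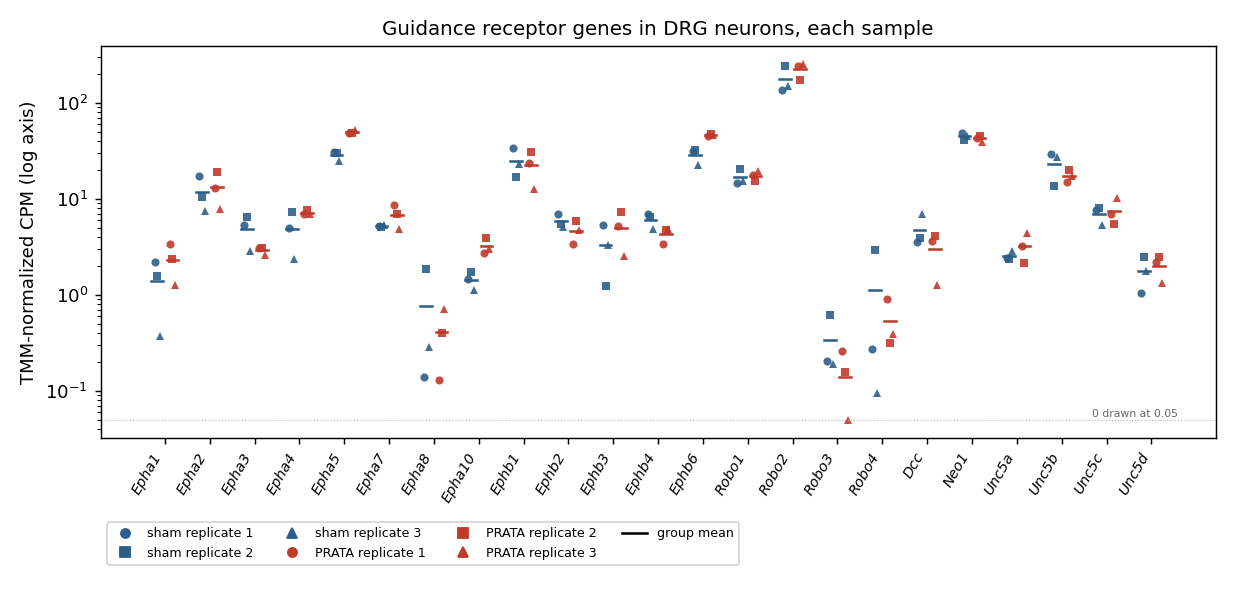
TMM-normalized CPM (vertical axis, logarithmic) of the 23 receptor genes in each of the 6 libraries, with horizontal lines for group means. Epha5, Epha10 and Ephb6 show no overlap between PRATA (red) and sham (blue), and the sham replicate 2 square is the highest point of Epha8, Robo3 and Robo4 (0 counts are drawn at 0.05).

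Ephrins did not separate the groups. Efna1 (ENSRNOG00000020573), the ephrin-A ligand with the most reads, was at 23.0, 24.6 and 34.2 CPM with PRATA, against 15.5, 24.97 and 14.1 CPM with sham surgery. Sham replicate 2 lay above 2 of the PRATA samples, and the log2 fold change was 0.60 ± 0.27 (SE, edgeR adjusted p = 0.289). Efna5 was at 2.87 to 5.38 CPM after PRATA and 1.80 to 4.84 CPM with sham surgery.
Efnb2 (ENSRNOG00000014648), the ephrin-B ligand with the most reads, was at 30.0, 22.9 and 41.1 CPM with PRATA, against 30.6, 34.8 and 16.8 CPM with sham surgery. Its log2 fold change was 0.20 ± 0.31 (SE, edgeR adjusted p = 0.775), and it turned to -0.05 without PRATA replicate 3 and to -0.05 without sham replicate 3. Efnb1 was at 16.4 to 23.0 CPM after PRATA and 12.5 to 22.8 CPM with sham surgery.

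Of the Slit ligands, Slit1 (ENSRNOG00000026065), which is made by neurons, was at 146, 116 and 149 CPM in PRATA replicates 1 to 3, against 85.4, 116 and 103 CPM in sham replicates 1 to 3. PRATA replicate 2 and sham replicate 2 were alike, so the groups overlapped by a narrow margin. The log2 fold change was 0.44 ± 0.19 (SE, edgeR adjusted p = 0.270), and -0.06 when scaled to the sensory neuron markers. Slit2 was at 18.9 to 31.9 CPM after PRATA and 24.4 to 29.4 CPM with sham surgery, and Slit3 at 21.0 to 26.2 and 12.9 to 23.9 CPM.
Robo2 (ENSRNOG00000029598), a Slit receptor, had the most reads of all members, which also depends on the length of its transcript. It was at 243, 172 and 255 CPM in PRATA replicates 1 to 3, against 135, 244 and 151 CPM in sham replicates 1 to 3. Sham replicate 2 lay between the PRATA samples, and the log2 fold change was 0.34 ± 0.27 (SE, edgeR adjusted p = 0.525). The libraries with the highest Robo2 levels, PRATA replicates 1 and 3 and sham replicate 2, were also those with the highest summed sensory neuron markers. Among the members tested, the same libraries were highest for Efna5, Slit1, Ntng1 and Robo1, and the share of all genes with this order was not computed. Scaled to the sensory neuron markers, the log2 fold change of Robo2 was -0.13 ± 0.19 (SE, edgeR adjusted p = 0.673). Robo1 was at 14.6 to 20.6 CPM over the 6 samples.

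Netrin ligands had log2 fold changes on both sides of 0. Ntn4 (ENSRNOG00000005573), a netrin of basement membranes, was at 2.45, 5.42 and 5.46 CPM in PRATA replicates 1 to 3, against 12.1, 7.34 and 9.92 CPM in sham replicates 1 to 3. All 3 PRATA values were under all 3 sham values. The mean was 4.44 ± 1.72 CPM (SD, n = 3) with PRATA, against 9.78 ± 2.38 CPM (SD, n = 3) with sham surgery, giving a log2 fold change of -1.13 ± 0.36 (SE, edgeR adjusted p = 0.188).
Ntn4 was the only member lower past both an unadjusted p under 0.05 and a log2 fold change of 1, where 3.23% of all genes lay. Over the 18 alternatives it had log2 fold changes between -1.65 and -0.88 and adjusted p from 0.0470 (limma voom with sample quality weights) to 0.550.
Ntn3 (ENSRNOG00000006970), a netrin known from sensory ganglia, was at 5.81, 7.17 and 7.28 CPM in PRATA replicates 1 to 3, against 4.08, 4.21 and 4.63 CPM in sham replicates 1 to 3. The groups did not overlap, and the log2 fold change was 0.65 ± 0.25 (SE, edgeR adjusted p = 0.237). Scaled to the sensory neuron markers, it was 0.15. Ntn1 (ENSRNOG00000003947), the classical axon attractant, was at 5.68, 5.58 and 6.33 CPM with PRATA, against 13.4, 11.2 and 3.97 CPM with sham surgery. Its sham samples lay on both sides of the PRATA samples, with a log2 fold change of -0.70 ± 0.42 (SE, edgeR adjusted p = 0.403).
The netrin-G proteins, which sit in the membrane and bind partners other than Dcc, overlapped between the groups. Ntng2 (ENSRNOG00000013694) was at 19.1, 21.7 and 14.0 CPM with PRATA, against 21.1, 13.7 and 11.2 CPM with sham surgery, a log2 fold change of 0.25 ± 0.29 (SE, edgeR adjusted p = 0.677). Ntng1 was at 2.15 to 9.29 CPM, and both ends of this range were PRATA samples.

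**Figure D4:**
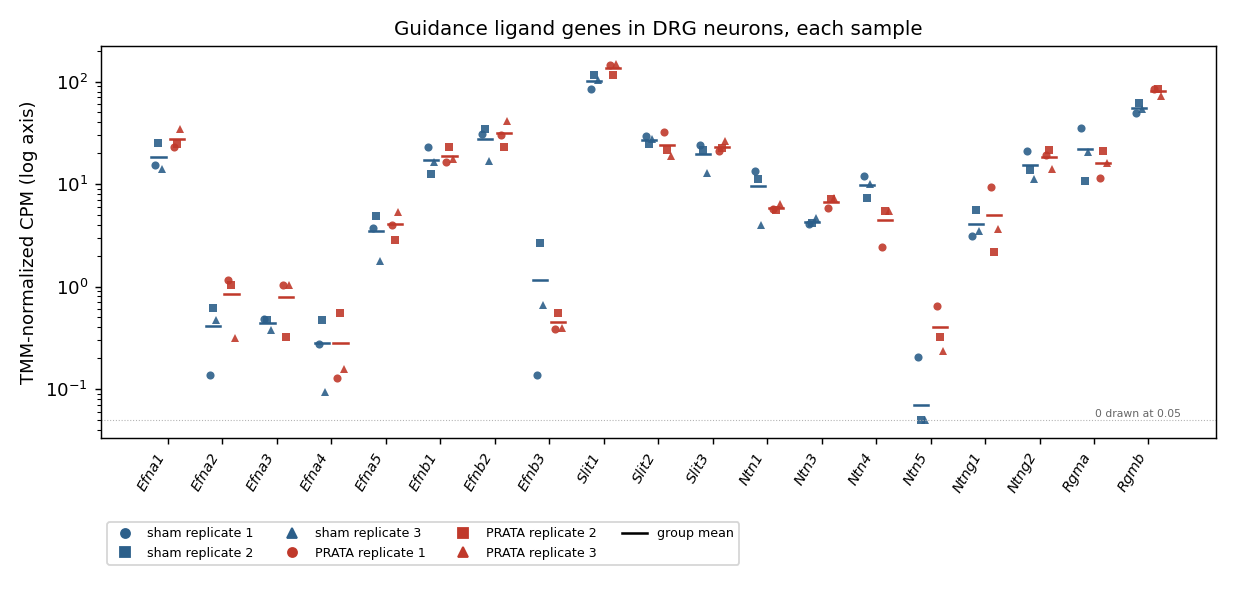
TMM-normalized CPM (vertical axis, logarithmic) of the 19 ligand genes in each of the 6 libraries, with horizontal lines for group means. Rgmb and Ntn3 lie higher and Ntn4 lower in all PRATA libraries (red) than in all sham libraries (blue). Ntn5, under the filter on low counts, was read 5, 4 and 3 times with PRATA and 3, 0 and 0 times with sham surgery. Its points are too few in reads to compare, and its 2 sham libraries with 0 counts are drawn at 0.05.

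Of the RGM ligands, Rgmb (ENSRNOG00000048190), a co-receptor of bone morphogenetic proteins that is made by DRG neurons, was at 84.8, 84.1 and 72.9 CPM in PRATA replicates 1, 2 and 3. It was at 49.9, 61.3 and 54.4 CPM in sham replicates 1 to 3. All 3 PRATA values exceeded all 3 sham values, with a log2 fold change of 0.55 ± 0.16 (SE, edgeR adjusted p = 0.175). Limma voom with sample quality weights gave Rgmb an adjusted p of 0.0450, and scaled to the sensory neuron markers its log2 fold change was 0.07. Rgma was at 11.4, 21.0 and 16.1 CPM with PRATA, against 35.5, 10.6 and 20.4 CPM with sham surgery, with the highest and the lowest value both in sham samples.
Neogenin (Neo1, ENSRNOG00000006490), the receptor of RGM proteins and netrins, was nearly level over the libraries. It was at 43.1, 45.3 and 39.3 CPM with PRATA, against 48.4, 40.6 and 44.9 CPM with sham surgery, a log2 fold change of -0.07 ± 0.16 (SE, edgeR adjusted p = 0.853). Over the 18 alternatives its log2 fold change lay between -0.58 and 0.04. Dcc, the attractive netrin receptor, was weak, at 1.27 to 4.14 CPM after PRATA and 3.59 to 6.90 CPM with sham surgery.
Unc5b, the repulsive netrin receptor with the most reads, was at 14.8, 19.9 and 17.2 CPM with PRATA, against 29.1, 13.6 and 27.0 CPM with sham surgery, where sham replicate 2 was the lowest of all. Unc5c was at 5.29 to 10.2 CPM, Unc5a at 2.15 to 4.43 CPM and Unc5d at 1.04 to 2.50 CPM over the 6 samples. None of the 6 netrin and RGM receptors tested had an unadjusted p under 0.05 in the edgeR test.

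Another 8 members, Efna2, Efna3, Efna4, Efnb3, Ntn5, Epha8, Robo3 and Robo4, did not pass the filter on low counts, and their counts lay between 0 and 19 in every library. Robo4, a Robo of endothelial cells, was read 7, 4 and 5 times in the PRATA samples and 4, 19 and 1 times in the sham samples. Efnb3 was read 3, 7 and 5 times in the PRATA samples and 2, 17 and 7 times in the sham samples. The highest CPM of 4 of these 8 members (Efnb3, Epha8, Robo3 and Robo4) was in sham replicate 2, the library of lowest depth. Ntn5 was read 5, 4 and 3 times in the PRATA samples and 3, 0 and 0 times in the sham samples. Its CPM did not overlap between the groups, but PRATA replicate 3 and sham replicate 1 both held 3 reads. Their 0.237 and 0.207 CPM differ by library size alone. At these counts the 8 genes were not tested between the operations.

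Signalling partners of these receptors were taken from a list written from general knowledge, of which 54 of 55 genes matched the table and 53 were tested. At an unadjusted p under 0.05, 9 were higher after PRATA and 3 lower, a share of 22.6% against 18.3% of all genes, and 0 had an edgeR adjusted p under 0.05. The median log2 fold change was 0.14. The genes of smallest p were Grip1, Evl, Kalrn, Ngef and Enah, and their groups did not overlap. Of all partners tested, 26.4% had groups that did not overlap, against 22.8% of all genes.
Grip1 (ENSRNOG00000004013), a scaffold that binds ephrin-B ligands, was at 37.1, 30.0 and 32.3 CPM with PRATA, against 19.9, 19.0 and 14.9 CPM with sham surgery, a log2 fold change of 0.88 ± 0.19 (SE, edgeR adjusted p = 0.156). Ngef, an exchange factor that EphA receptors use to act on RhoA, was at 31.8, 40.8 and 27.2 CPM with PRATA, against 14.8, 25.1 and 16.4 CPM with sham surgery. The actin regulators Evl and Enah had log2 fold changes of 0.71 and 0.58, and Kalrn, an exchange factor of Rac, one of 0.67. Named after their values were seen, the lower partners were Rock2 (-0.81), the kinase downstream of RhoA, Trio (-0.58), another exchange factor, and Yes1 (-0.67), a Src family kinase.
Without PRATA replicate 1, or without sham replicate 3, 6 partners passed the unadjusted p, and without sham replicate 2, 23 did. Over all genes the shares higher and lower were 3.47% and 5.44% in the first of these fits, 3.76% and 5.57% in the next and 13.4% and 14.1% without sham replicate 2.

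**Figure D5:**
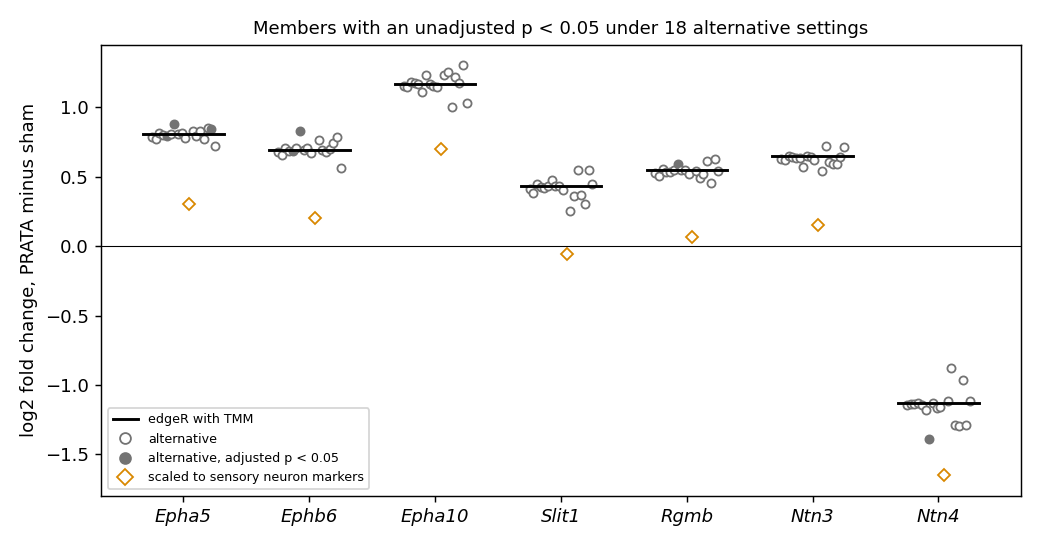
Log2 fold change (PRATA minus sham, vertical axis) of the 7 members with an unadjusted p under 0.05 in the edgeR fit (black lines) and in 18 alternatives (points, filled where the adjusted p is under 0.05). The orange diamonds, scaled to the sensory neuron markers, lie below the other values of each gene, at 0.30 for Epha5 and -1.65 for Ntn4.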

How the data were processed

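RNA of isolated L1-L2 DRG neurons was sequenced in 3 PRATA and 3 sham samples. The deposited table holds raw counts per gene, which the authors made and did not normalize. For the authors' pipeline the paper's methods name HISAT2, StringTie and Cuffdiff, whereas the submitters' processing notes name STAR 2.7.3a, RSEM and DESeq2. Which of these programs made the counts is not given in the sources used here, and neither are the build, annotation and strand option, so reads of a gene and of a gene that overlaps it may not be told apart. In RefSeq (GRCr8), 23 of the 42 members overlap another gene, among them Ntn4 (a pseudogene), Slit1, Epha10 and Robo2, while Epha5, Ephb6, Rgmb, Ntn3 and Neo1 overlap none. All columns of sample values were used.

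The count tests used edgeR 4.0.16, DESeq2 1.42.0 and limma 3.58.1 under R 4.3.3, and the plots matplotlib 3.10.9 under Python 3.11.15. Genes passed filterByExpr (minimum count 10, minimum total 15), counts were scaled by TMM, and PRATA was compared with sham by edgeR's quasi-likelihood test without covariate. The test is two-sided, and p-values were adjusted by Benjamini and Hochberg's method across the 14919 genes that passed. The standard error of an edgeR log2 fold change was computed from the test, as its absolute value divided by the square root of the F statistic. CPM values use the TMM-scaled library sizes. Members, lists and rules were chosen with earlier results of these data known. Fold changes are given for members with an unadjusted p under 0.05 and for the member with the most reads in each family, and up to 5 signalling partners with the smallest p are named. The other members are given by level. Alternatives were DESeq2, limma-trend, limma voom with sample quality weights, a robust fit, scaling by DESeq2's size factors or by library size alone, leaving out the filter, a minimum of 10 counts throughout, the replicate block, protein-coding genes alone, scaling to sensory neuron markers, the 4 samples without PRATA replicate 3 and sham replicate 1 (a split by 7SL RNA reads known from earlier results), and each sample left out. The fits were tested on simulated data. Promoter windows from RefSeq (GRCr8) were matched by symbol for 35 of the 42 members.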

Additional observations from a re-analysis of the deposited data

How the results depend on the processing

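Depth limits the 8 members under the filter and those of few counts such as Epha10. Of the 13 members given with a fold change, Efna1, Ntn1, Ntn3, Ntn4, Rgmb, Epha5, Epha10 and Ephb6 kept their direction in all 18 alternatives. Scaling to the sensory neuron markers reversed Efnb2 (-0.32), Slit1 (-0.058), Ntng2 (-0.27), Robo2 (-0.13), the receptor median (-0.28) and the ligand median (-0.26), moved the counts at an unadjusted p under 0.05 to 0 receptors and 0 ligands higher and 3 receptors and 3 ligands lower, and shifted the median of all genes to -0.48. The 4 samples without PRATA replicate 3 and sham replicate 1 reversed Neo1 (0.040). Limma voom with sample quality weights gave 5 receptors higher and 1 lower, a ligand median of 0.46 and 24 signalling partners. In that fit 15.6% of all genes were higher and 15.3% lower at an unadjusted p under 0.05. It gave 4 of 34 members at an adjusted p under 0.05, beside 1173 of 14919 genes. DESeq2 gave 2 of 42 members at the adjusted threshold, beside 662 of 25624 genes. Library size alone left 1 ligand higher, where 5.6% of all genes were. For each of these the cause was not tested.
The sources used here do not say whether the replicate numbers pair the samples. Samples of the same number, each taken as its deviation from the mean of its group, correlated over genes with r of -0.36, -0.05 and -0.35. No PRATA sample correlated best with the sham sample of its own number. With 3 samples per group, other differences between libraries can hide a pairing, so this check cannot exclude one. With the replicate block, 1 ligand was higher in place of 3 (4.16% of all genes in place of 8.19%), and the other counts at an unadjusted p under 0.05 were 3 receptors higher, 0 receptors lower, 1 ligand lower and 9 signalling partners. The block left Epha5 at 0.81 (edgeR adjusted p = 0.461).
With each sample left out in turn, 2 to 5 receptors were higher and 0 to 1 lower, and 1 to 3 ligands were higher and 1 to 2 lower. In these fits 6 to 23 signalling partners had an unadjusted p under 0.05, and 0 to 1 members an adjusted p under 0.05. Over all genes, 3.47% to 13.4% were higher and 5.44% to 14.1% lower at an unadjusted p under 0.05, so the shares moved over the whole table. The receptor median lay between 0.0061 and 0.23 and the ligand median between 0.085 and 0.47. Efnb2 lay between -0.054 and 0.40.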

Other observations

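Promoters of the members were rich in G and C. Over the 35 members with a RefSeq promoter, the 250 bases before the start had a median GC content of 64.4%, against 54.0% over 21851 protein-coding promoters. TATAAA, the TATA box, was found in 0 of these 35 windows, against 12.1% of all, and GGGCGG, the GC box, in 19 of 35, against 38.9% of all. The AP-1 motif TGANTCA was in 1 of 35 (5.69% of all), the E-box CACGTG in 2 of 35 (6.16% of all) and CCAAT in 13 of 35 (35.0% of all). These shares were not tested.

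Rgma, Unc5b and Neo1, a ligand of neogenin, a netrin receptor and neogenin itself, had their 3 highest levels in the same libraries, PRATA replicate 2 and sham replicates 1 and 3. The summed satellite glia markers were also highest in these libraries, at 6966, 8394 and 9309 CPM. Of these sums, Apoe alone gave 5229, 6283 and 7473 CPM. This order was found for 3 of 34 members and for 9.56% of all genes tested, so that it is common in these samples.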
